A study of Mus musculus with 4 samples.

Results

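The genes described here are 8 genes of hepatic fatty acid oxidation and of its nuclear receptor PPAR alpha: Ppara, Cpt1a, Cpt2, Acadm, Acadl, Ehhadh, Acot1 and Fgf21. They were chosen by function, as the rows of the deposited count table whose Ensembl identifiers carry these symbols in GENCODE M21, and all 8 were found among 55487 genes. Messenger RNA was sequenced from bulk liver tumour (HCC) tissue of 4 mice, 2 labelled wild type and 2 labelled knockout for Tfrc, which encodes transferrin receptor 1. The series describes Alb-cre H11-myc mice, in which a Myc transgene at the H11 locus gives spontaneous liver cancer and albumin-driven Cre acts in hepatocytes, so other cells of a tumour are not its target. Tumours of both groups arose in this c-Myc model. Whether the wild type animals carry Cre, which exons are deleted, and how old the animals were is not stated in the labels.

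Oxidation of fatty acids in the liver starts when long chains are linked to carnitine by CPT1 at the outer mitochondrial membrane and handed back to coenzyme A by CPT2 inside. Acyl-CoA dehydrogenases then open each turn of the mitochondrial spiral, while peroxisomes shorten very long chains and dicarboxylic acids with the help of the bifunctional enzyme that Ehhadh encodes. PPAR alpha, bound to fatty acids and paired with RXR, is known to switch on these genes in fasting, together with ketone body enzymes and the hormone gene Fgf21.

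The 4 libraries held 15918349 to 17052943 counts, and mitochondrially encoded genes took 8.69% and 4.13% of them in wild type replicates 1 and 2, below the 9.80% and 16.6% of knockout replicates 1 and 2. The part of this share in the results was not tested. Wild type replicate 2 stood apart on the first principal component, at 86.6 against -38.5 to -11.2 in the other libraries. For many results, the value with wild type replicate 2 left out is given alongside. A result printed without such a value is not thereby shown to be stable. Pairs of values are given for replicate 1, then replicate 2, of a group. Tfrc was not a check of the labels: it had 460 and 234 CPM in wild type and 333.5 and 205 CPM in knockout, so the groups overlapped. Every direction below is therefore that of the libraries labelled knockout. CPM are counts scaled to a common library size by TMM. FPKM are the authors' values scaled by a fixed gene length and library total, used wherever 1 gene is set against another. Hepatocyte markers were present in all libraries: Alb, the albumin gene, made up 0.601% and 2.66% of the wild type libraries and 2.23% and 1.62% of the knockout libraries. In bulk tissue, fewer hepatocytes and less of an RNA per hepatocyte cannot be told apart.

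Upstream sequences are shown for Cpt1a and Ehhadh, the members that were higher in knockout without overlap, and for Fgf21, the member that varied most. Each run gives the 250 bases before the RefSeq start site (GRCm38.p6, 5′ to 3′ on the gene's strand). Capitals mark the letters AGGTCA (a nuclear receptor half-site), TGATGCAAT (a C/EBP-ATF composite element), CCAAT and TATAAA, each on either strand. The windows are chr19:3323051-3323300 on the plus strand for Cpt1a, chr16:21787835-21788084 on the minus strand for Ehhadh and chr7:45615491-45615740 on the minus strand for Fgf21.
Cpt1a: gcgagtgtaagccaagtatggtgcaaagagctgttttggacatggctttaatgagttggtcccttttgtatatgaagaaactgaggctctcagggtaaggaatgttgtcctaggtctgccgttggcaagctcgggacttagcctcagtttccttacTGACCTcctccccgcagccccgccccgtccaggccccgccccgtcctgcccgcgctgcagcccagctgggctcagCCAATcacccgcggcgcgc
Ehhadh: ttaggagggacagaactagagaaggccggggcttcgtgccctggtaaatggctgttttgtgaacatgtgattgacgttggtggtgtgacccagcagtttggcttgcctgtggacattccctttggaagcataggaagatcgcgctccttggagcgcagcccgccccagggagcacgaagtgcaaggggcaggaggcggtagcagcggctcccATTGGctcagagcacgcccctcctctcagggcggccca
Fgf21: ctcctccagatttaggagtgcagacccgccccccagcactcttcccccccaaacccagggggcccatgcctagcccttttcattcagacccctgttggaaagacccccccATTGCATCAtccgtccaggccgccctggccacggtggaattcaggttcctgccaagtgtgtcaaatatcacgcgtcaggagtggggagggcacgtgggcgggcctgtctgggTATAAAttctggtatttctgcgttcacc
The Cpt1a window holds the half-site in reverse from -94 to -89 and CCAAT from -19 to -15, counted back from the start site. The Ehhadh window holds CCAAT in reverse from -38 to -34. The Fgf21 window holds the composite element in reverse from -140 to -132 and TATAAA from -28 to -23. The half-site AGGTCA is in 4604 of 32817 windows of the same length over all genes and in 20.4% of the 113 genes of the pathway lists that have a window. TGATGCAAT is in 0.168% of all windows and, among those pathway genes, in Fgf21 and Echs1. AGGTCA repeated in the same direction with any 1 base between (a DR1 element) is in 0.0335% of all windows and in no window of the 8 genes. These are matches of letters within a short window and say nothing of binding, and GENCODE M21 starts Cpt1a further upstream, at base 3322334.

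None of the 8 genes passed the test of knockout against wild type. Ehhadh had the largest difference, 2.37-fold higher in knockout, and Cpt1a the tightest, 1.62-fold higher, while Cpt2 was lower and the other 5 overlapped between groups. By edgeR's quasi-likelihood test with Benjamini-Hochberg adjustment, 0 of 8 had an adjusted p under 0.05, against 0.0% of the 16310 genes tested in either direction. At an unadjusted p under 0.05 there was 1 of 8, Ehhadh, against 8.3% of all tested genes. By DESeq2, 0 of 8 were called, against 0.386% of all tested genes called higher and 0.521% called lower. The groups did not overlap for 3 of 8 genes, against 42.0% of all tested genes. Knockout was the higher group for 2 of these, against 21.9%, and the lower for 1, against 20.1%. A log2 fold change above 0 was found for 5 of 8, against 50.4%, and below 0 for 3 of 8, against 49.6%. The median log2 fold change of the 8 was 0.13, beside 0.0054 over all tested genes. Both the share that separated and the share called were thus close to those of all genes. With 2 animals a group, an exact permutation test of a single value cannot give a two-sided p below 0.333.

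**Figure D1:**
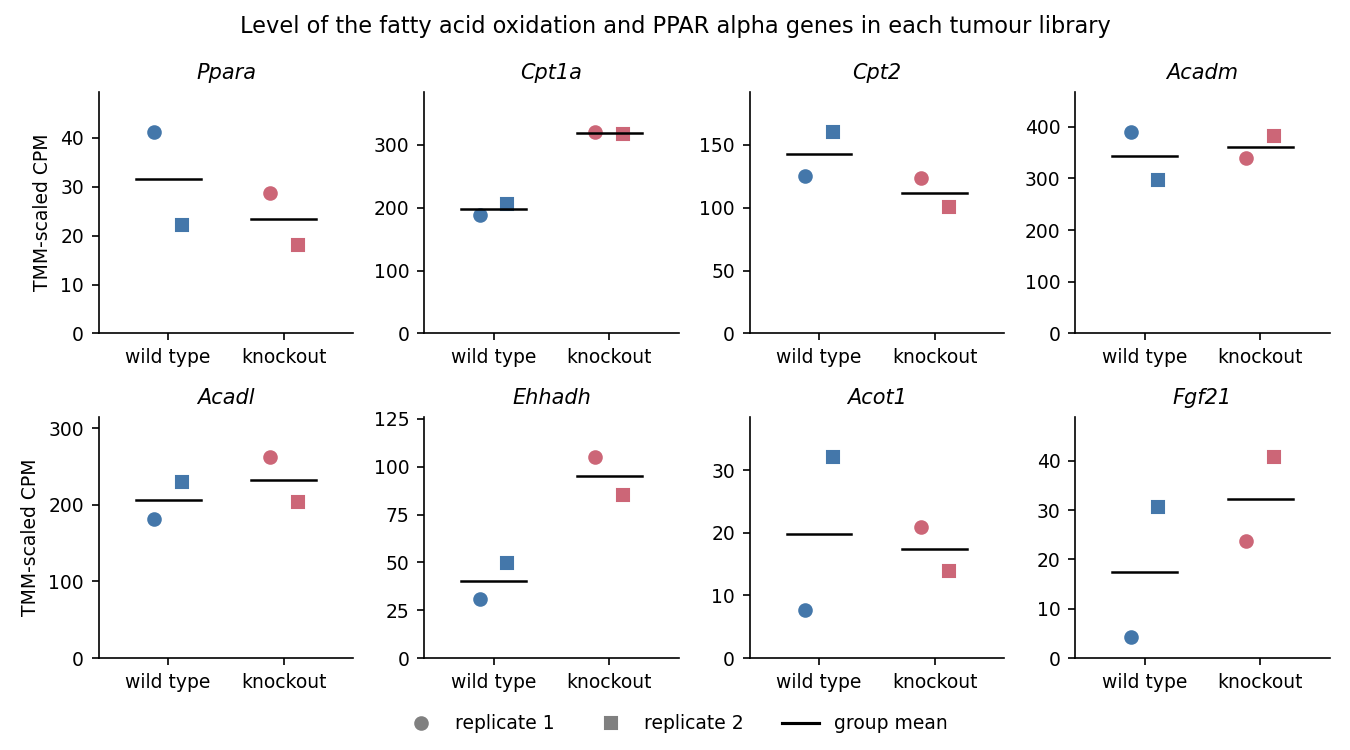
TMM-scaled CPM (vertical axes, from 0) of the 8 genes in each tumour library; points are libraries, colour and position give the group, shape gives the replicate number and lines are group means of 2 libraries. For Cpt1a and Ehhadh both knockout points lie above both wild type points, for Cpt2 both lie below, and Fgf21 and Acot1 spread most within the wild type group.

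Ppara, the gene of the receptor itself (ENSMUSG00000022383, chromosome 15, 85734983 to 85802819, mm10), had 41.2 and 22.2 CPM in wild type and 28.8 and 18.04 CPM in knockout. Wild type replicate 1 was highest and knockout replicate 2 lowest, and knockout replicate 1 lay above wild type replicate 2. Group means were 31.7 ± 13.4 and 23.4 ± 7.61 CPM (SD, n = 2 each), a log2 fold change of -0.44 (SE 0.42, 95% interval -1.44 to 0.57, edgeR adjusted p = 0.784). With 1 library left out it was 0.044 (wild type replicate 1), -0.81 (wild type replicate 2), -0.84 (knockout replicate 1) or -0.13 (knockout replicate 2).

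Cpt1a, the liver form of the enzyme that commits long-chain fatty acids to mitochondria (ENSMUSG00000024900, chromosome 19, 3322334 to 3385733), had 189 and 206 CPM in wild type. In knockout it had 320.1 and 317.5 CPM. Replicates lay within 1.09-fold of each other in wild type and 1.01-fold in knockout, and the groups did not overlap. The means were 197 ± 12.2 and 319 ± 1.82 CPM, a log2 fold change of 0.69 (SE 0.31, 95% interval -0.05 to 1.43, edgeR adjusted p = 0.621). With 1 library left out the log2 fold change lay between 0.59 and 0.76.

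Cpt2, the inner-membrane partner of Cpt1a (ENSMUSG00000028607, chromosome 4, 107903981 to 107923610), had 125 and 160 CPM in wild type and 123 and 100.3 CPM in knockout. Knockout replicate 1 and wild type replicate 1 were nearly level, so the separation rested on a margin of little more than 1 CPM. Cpt2 thus differed by -0.35 on the log2 scale (SE 0.31, 95% interval -1.08 to 0.39, edgeR adjusted p = 0.764). It was -0.16 after leaving out wild type replicate 2, -0.21 after leaving out knockout replicate 2, -0.54 after leaving out knockout replicate 1 and -0.55 after leaving out wild type replicate 1.

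The ratio of Cpt1a to Cpt2 FPKM was 0.913 and 0.777 in wild type and 1.57 and 1.91 in knockout. A ratio within a library does not depend on its scaling. Cpt1b and Cpt1c, the muscle and brain forms, made up the rest of the CPT1 messages. Cpt1a supplied 76.8% and 80.3% of the summed CPT1 FPKM in wild type and 91.5% and 88.5% in knockout. Cpt1b counts are uncertain, because 78.6% of its windows of 50 bases are also in Gm44502, which overlaps it on the same strand. These ratios were chosen after values were seen and were not tested.

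**Figure D2:**
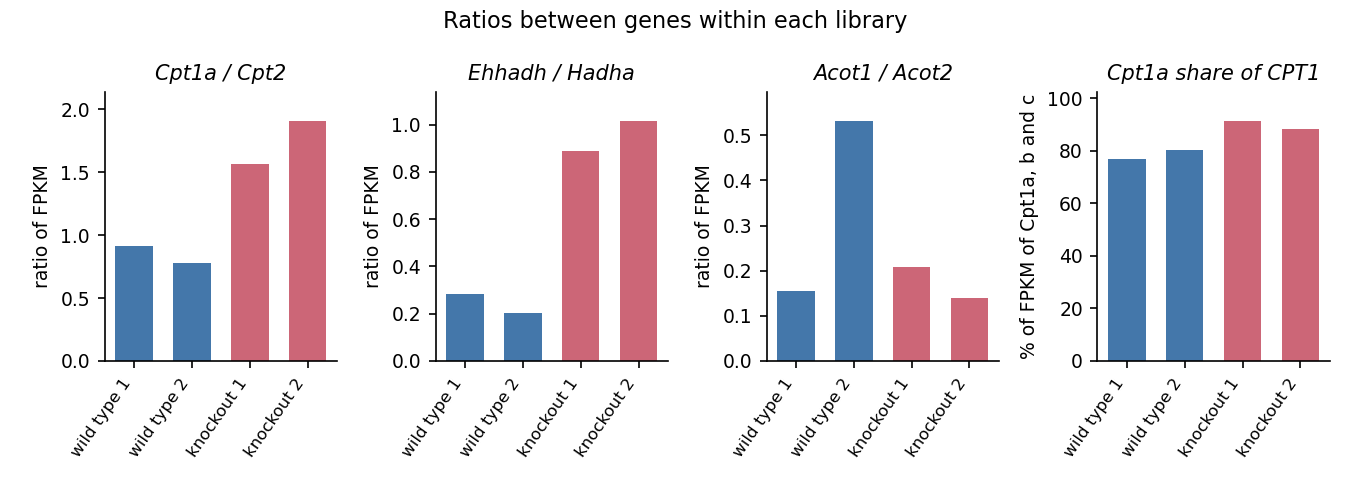
Ratios of FPKM between genes (first 3 panels) and the percent of summed CPT1 FPKM that came from Cpt1a (last panel) in each library, with axes from 0, wild type in blue and knockout in red. Cpt1a over Cpt2 was 0.777 to 0.913 in wild type and 1.57 to 1.91 in knockout, while Acot1 over Acot2 was highest in wild type replicate 2, at 0.532.

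Acadm, the medium-chain acyl-CoA dehydrogenase (ENSMUSG00000062908, chromosome 3, 153922357 to 153944632), had 390 and 297 CPM in wild type and 340 and 382 CPM in knockout. The knockout libraries lay between the wild type libraries. Acadm thus differed by 0.073 on the log2 scale (SE 0.35, 95% interval -0.74 to 0.89). It turned to -0.11 after leaving out wild type replicate 2 and -0.012 after leaving out knockout replicate 2.

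Acadl, the long-chain acyl-CoA dehydrogenase (ENSMUSG00000026003, chromosome 1, 66830839 to 66863277), had 182 and 230 CPM in wild type and 262 and 203 CPM in knockout. The groups overlapped, and the log2 fold change of 0.18 (SE 0.33, 95% interval -0.61 to 0.96) turned to -0.021 after leaving out wild type replicate 1 and -0.051 after leaving out knockout replicate 1. Acadl was the most abundant of the 8 messages per length, with 96.2 to 131 FPKM. Among the 4 straight-chain dehydrogenases it supplied 38.9% and 31.6% of the summed FPKM in wild type and 43.0% in each knockout replicate. The short-chain gene Acads supplied 14.8% and 25.5% in wild type and 12.6% and 8.20% in knockout. The Acads share was thus lower in both knockout libraries than in either wild type library. The level of Acads itself overlapped between groups, with 104 and 279 CPM in wild type and 115 and 58.3 CPM in knockout.

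Ehhadh, the peroxisomal bifunctional enzyme and a strongly inducible PPAR alpha target in rodents (ENSMUSG00000022853, chromosome 16, 21761287 to 21787807), had 30.9 and 49.4 CPM in wild type. In knockout it had 105 and 85.4 CPM. The groups did not overlap, with counts of 568 and 761 in wild type against 1703 and 1354 in knockout. The means were 40.2 ± 13.1 and 95.2 ± 13.9 CPM, a log2 fold change of 1.24 (SE 0.35, 95% interval 0.43 to 2.06, edgeR adjusted p = 0.545, DESeq2 adjusted p = 0.141). Over the alternatives edgeR's adjusted p ran up to 0.9999 and down to 0.0907, after leaving out wild type replicate 2, where the fold change was 1.62. The fold change was 0.91 after leaving out wild type replicate 1, 1.05 after leaving out knockout replicate 1 and 1.39 after leaving out knockout replicate 2, always with the same sign. As a percent of the geometric mean of 11 hepatocyte markers, Ehhadh FPKM stood at 2.84 and 2.31 in wild type and at 5.50 and 4.93 in knockout. Cpt1a did not separate on that scale, with 5.88 and 3.27 against 5.69 and 6.22.

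Hadha, the mitochondrial counterpart of Ehhadh in the trifunctional protein, was singled out after its values were seen and had a lower mean in knockout, with 391 and 866 CPM in wild type and 426 and 302 CPM in knockout. Its groups overlapped, and its log2 fold change of -0.79 was -0.11 after leaving out wild type replicate 2. The ratio of Ehhadh to Hadha FPKM was 0.284 and 0.205 in wild type and 0.887 and 1.02 in knockout. Of 8730 exon bases of Hadha, 75 overlap Garem2 on the opposite strand, which had 0 to 8 counts. No source used here gives the strand setting of the counting.

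Acot1, a cytosolic acyl-CoA thioesterase that frees fatty acids from coenzyme A (ENSMUSG00000072949, chromosome 12, 84009490 to 84018371), had 7.62 and 32.1 CPM in wild type and 20.97 and 13.9 CPM in knockout. The wild type libraries held both the lowest and the highest value, 4.21-fold apart. The log2 fold change of -0.19 (SE 0.65, 95% interval -1.72 to 1.34) was 1.19 after leaving out wild type replicate 2, -0.92 after leaving out wild type replicate 1, -0.55 after leaving out knockout replicate 1 and 0.079 after leaving out knockout replicate 2. Counts of Acot1 are uncertain because Acot2, its mitochondrial neighbour, is a close copy. Their coding sequences are 95.6% identical over the aligned bases, and 43.6% of the windows of 50 bases in the Acot1 coding sequence are also in that of Acot2. Over whole Acot1 transcripts, the measure given for other genes here, 13.6% of windows are shared with Acot2 and 19.2% with any other gene. The longest run they share is 273 coding bases at chr12:84017006-84017278 on the plus strand (GENCODE M21, mm10). A read lying wholly inside it could not be assigned.
Acot1 and Acot2: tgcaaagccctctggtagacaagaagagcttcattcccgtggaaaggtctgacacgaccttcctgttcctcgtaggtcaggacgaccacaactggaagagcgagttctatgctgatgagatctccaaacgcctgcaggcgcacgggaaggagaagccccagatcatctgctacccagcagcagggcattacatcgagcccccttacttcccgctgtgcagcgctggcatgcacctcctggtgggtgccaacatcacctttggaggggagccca
Acot2 had 17.7 and 21.7 CPM in wild type and 36.1 and 35.5 CPM in knockout, so its groups did not overlap (log2 fold change 0.86, SE 0.31, edgeR adjusted p = 0.572). Acot1 and Acot2 summed to 10.4 and 13.7 FPKM in wild type and to 20.3 and 17.8 FPKM in knockout. This sum was higher in both knockout libraries, while their ratio was highest in wild type replicate 2.

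Fgf21, the hormone that PPAR alpha and the stress factor ATF4 are both known to induce in liver (ENSMUSG00000030827, chromosome 7, 45613886 to 45615490), had 4.30 and 30.7 CPM in wild type and 23.7 and 40.7 CPM in knockout. Wild type replicate 1 was far below the rest, with 79 counts against 384 to 646 in the other libraries, and wild type replicate 2 lay above knockout replicate 1. The wild type libraries differed 7.13-fold and the group means, 17.5 ± 18.6 and 32.2 ± 12.1 CPM, by 1.84-fold. Fgf21 thus differed by 0.88 on the log2 scale (SE 0.80, 95% interval -1.02 to 2.78, edgeR adjusted p = 0.769). A single library decided it: the value was 2.90 after leaving out wild type replicate 2 (edgeR adjusted p = 0.0536) and 0.033 after leaving out wild type replicate 1. It was 1.18 after leaving out knockout replicate 1 and 0.44 after leaving out knockout replicate 2.

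Per length, the order of the 8 by mean FPKM was Acadl (107), Acadm (54.2), Cpt1a (29.3), Fgf21 (25.2), Cpt2 (23.9), Ehhadh (22.5), Ppara (4.66) and Acot1 (2.96). Acadl lay above Acadm in every library, and Acadm above Cpt1a. Cpt1a, Fgf21, Cpt2 and Ehhadh overlapped with their neighbours in this order, as did Ppara with Acot1. Ehhadh was above Ppara in every library. The length behind Acot1 FPKM, 6105 bases, covers all annotated exons of the gene.

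Across the wider pathway no gene passed either, and the steps did not share 1 direction. The lists for these pathways held 132 genes including the 8, of which 129 were tested. By edgeR 0 of the 129 were called. At an unadjusted edgeR p under 0.05, 8 of the 129 were higher in knockout and 5 lower. Over all tested genes the shares at that threshold were 3.95% higher and 4.35% lower. Of the 129, 25 were higher in knockout without overlap and 30 lower, beside 21.9% and 20.1% of all tested genes.

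**Figure D3:**
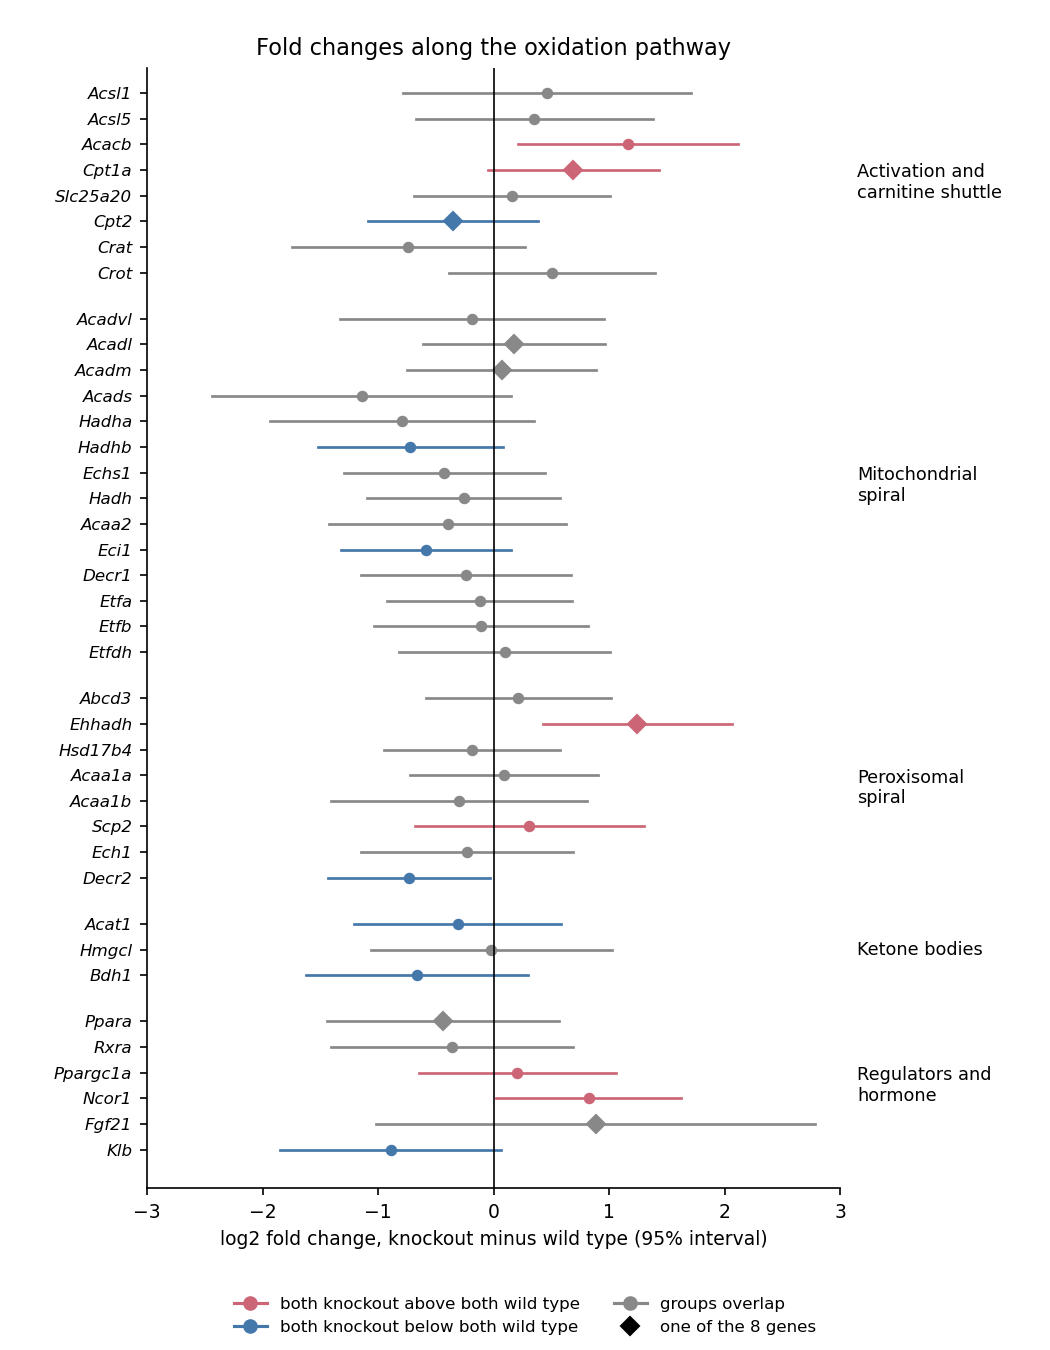
Log2 fold change, knockout minus wild type, with its 95% interval from edgeR for genes along the pathway; diamonds are members of the 8, red marks knockout higher without overlap, blue lower without overlap, and grey overlapping groups. Most mitochondrial genes lie left of 0, Ehhadh lies right of it, and no gene passed the adjusted threshold.

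In the list for uptake, activation and the carnitine shuttle, 0 of 20 tested genes passed, 11 lay above and 9 below 0 on the log2 scale, and the median was 0.16. That median depended on single libraries: it was -0.20 with wild type replicate 1 left out and 0.58 with wild type replicate 2 left out. Acacb, whose product makes the malonyl-CoA that inhibits CPT1, had 22.9 and 32.9 CPM in wild type and 81.8 and 43.3 CPM in knockout. It was higher in both knockout libraries, as Cpt1a was, with a log2 fold change of 1.17 (0.60 after leaving out knockout replicate 1 and 1.55 after leaving out knockout replicate 2). The carnitine transporter gene Slc22a5 stood at 0.53 on the log2 scale and the carnitine acetyltransferase gene Crat at -0.74, the latter with overlapping groups and at -0.11 once wild type replicate 2 was left out. Fabp1, the liver fatty acid binding protein, and Slc27a2, a very long chain acyl-CoA synthetase, had the highest FPKM of the list and stood at 0.28 and 0.31 on the log2 scale. Fabp1 turned to -0.28 with wild type replicate 1 left out.

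In the mitochondrial list 0 of 19 passed, 4 lay above and 15 below 0 on the log2 scale, and the median was -0.27. It stood at -0.70 when wild type replicate 1 was left out and at -0.11 when wild type replicate 2 was. It was -0.49 after leaving out knockout replicate 1 and -0.21 after leaving out knockout replicate 2, so the sign was the same in each case. Eci1, which shifts double bonds of unsaturated chains, had 191 and 241 CPM in wild type and 140 and 148 CPM in knockout. Acad9, which also serves assembly of respiratory complex I, had a log2 fold change of -0.78, and Hadhb, the thiolase subunit of the trifunctional protein, -0.72, both without overlap. Acad9 was at -0.21 with wild type replicate 1 left out and at -1.21 with wild type replicate 2 left out. Hadhb shares 19.7% of its windows of 50 bases with other genes and its level is uncertain. The abundant genes Acaa2, the last thiolase of the spiral, and Etfa, an electron acceptor of the dehydrogenases, had log2 fold changes of -0.40 and -0.12 with overlapping groups, and Acaa2 turned to 0.10 with wild type replicate 2 left out.

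The peroxisomal list split evenly, with 10 genes above and 10 below 0 on the log2 scale, 0 of 20 passed, and a median of 0.025. With 1 library left out the median ran from -0.24 to 0.26, so it had no stable sign. Ehhadh, Scp2, Pex11a, Phyh and Nudt7 were among those higher in both knockout libraries, and Abcd2, Decr2, Amacr and Nudt19 among those lower in both. Pex11a, Phyh, Nudt7 and Amacr were singled out after their values were seen. Decr2, a peroxisomal reductase for unsaturated chains, had 59.9 and 77.0 CPM in wild type and 40.9 and 41.4 CPM in knockout. Acaa1b, a peroxisomal thiolase, stood at -0.30 on the log2 scale with overlapping groups and turned to 0.39 with wild type replicate 2 left out. It shares 30.5% of its windows of 50 bases with Acaa1a, so its counts are uncertain. The lipid carrier gene Scp2 stood at 0.31. It shares 29.7% of its windows of 50 bases with Scp2-ps2, so its counts are uncertain too. Summed over the lists, peroxisomal FPKM were 0.783 and 0.852 times the mitochondrial FPKM in wild type and 0.997 and 1.16 times in knockout. This ratio was not tested, and its peroxisomal sum includes the abundant gene Scp2, whose counts are uncertain.

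Ketone body genes were all at or below the wild type level on average. Of 6 tested, 0 passed and 6 had a negative log2 fold change, with a median of -0.28 that ran from -0.47 to -0.19 when 1 library was left out. Bdh1, which makes beta-hydroxybutyrate, had 280 and 525 CPM in wild type and 245 and 263 CPM in knockout, a difference that rested mainly on wild type replicate 2 (-0.14 on the log2 scale with it left out). Acat1 and Oxct1 had log2 fold changes of -0.31 and -0.73, also without overlap. The other 3 genes of this list overlapped between groups.

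Among 12 thioesterase genes 0 passed, 4 lay above and 8 below 0 on the log2 scale (median -0.24). The median turned to 0.18 with wild type replicate 2 left out and was -0.52 with wild type replicate 1 left out. Besides Acot2, Acot12 and Acot4 were higher in both knockout libraries, with log2 fold changes of 0.70 and 0.48, and Acot6 and Acot7 were lower in both, with -0.69 and -0.41. Acot13, the most abundant per length, overlapped. Of 6674 exon bases of Acot4, 615 overlap 4732463B04Rik on the opposite strand, which had 6 to 52 counts. Another 33 overlap Gm49366 on the same strand, which had 0 to 9 counts. Of 3293 exon bases of Acot12, 149 overlap a gene on the opposite strand with 10 to 53 counts. These counts may be mixed to some degree, which was not tested.

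The receptor's partners lay on both sides of 0. Of 18 receptor and cofactor genes 0 passed, 8 lay above and 10 below 0 on the log2 scale (median -0.22). The median turned to 0.046 with wild type replicate 1 left out and to 0.073 with knockout replicate 2 left out. It was -0.07 with wild type replicate 2 left out. The corepressor gene Ncor1 had 60.1 and 37.2 CPM in wild type and 91.2 and 81.3 CPM in knockout. The deacetylase gene Sirt1 and the coactivator gene Pprc1 had log2 fold changes of 1.08 and 0.74, and the partner receptor gene Rxrb -0.81, each without overlap. Rxra, the main hepatic partner of PPAR alpha, had a log2 fold change of -0.36, with knockout replicate 2 lowest at 151 CPM and the other libraries at 266 to 346 CPM. It turned to 0.097 with knockout replicate 2 left out.

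Of 21 tested PPAR alpha targets outside the oxidation steps 0 passed, 11 lay above and 10 below 0 on the log2 scale, and the median was 0.062. The median was -0.41 with wild type replicate 1 left out, -0.37 with knockout replicate 1 left out, -0.09 with knockout replicate 2 left out and 0.30 with wild type replicate 2 left out. Slc25a42, the mitochondrial carrier that imports coenzyme A, had 46.0 and 45.0 CPM in wild type and 99.2 and 111 CPM in knockout. The log2 fold change of 1.21 (SE 0.28, edgeR adjusted p = 0.545) was close to that of Ehhadh. The lipid droplet genes Plin5 and Plin4 separated in opposite directions. Plin5, which ties droplets to mitochondria, had 193 and 238 CPM in wild type and 115 and 93.4 CPM in knockout, while Plin4 had a log2 fold change of 0.90. Gpd1, which supplies glycerol 3-phosphate, had -0.69 without overlap.

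Receptors for FGF21 were measured beside the hormone. Klb, the coreceptor that gives FGF21 its tissue specificity, had 16.5 and 29.8 CPM in wild type and 12.4 and 12.6 CPM in knockout, which gave a log2 fold change of -0.89 (SE 0.40, edgeR adjusted p = 0.621). Fgfr4, the FGF receptor with the highest FPKM here, had a log2 fold change of -0.22 and Fgfr3 one of 0.37, which turned to -0.20 with wild type replicate 2 left out. Fgfr2 was at 0.708 and 4.81 CPM in wild type and at 6.17 and 9.08 CPM in knockout. Of these 6 genes 0 passed. Of 10 other genes in the ATF4 list, which holds Atf4 itself beside its targets, 0 passed, 2 lay above and 8 below 0 on the log2 scale (median -0.22). The median turned to 0.21 with wild type replicate 2 left out, and was -0.49 with knockout replicate 1 left out. Named by their p were Asns at -0.67, Phgdh at -0.59 and Sesn2 at 0.61.

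Cyp4a10 and Cyp4a14, fatty acid omega hydroxylases and sensitive PPAR alpha targets in mouse liver, were singled out after their values were seen. Cyp4a14 had 0.436 and 25.7 CPM in wild type and 10.1 and 47.6 CPM in knockout. Cyp4a10 had 0.163 and 13.3 CPM in wild type and 6.60 and 25.3 CPM in knockout, and its value in wild type replicate 1 rests on 3 counts. Both had the order of libraries seen for Fgf21, highest in knockout replicate 2, then wild type replicate 2, knockout replicate 1 and wild type replicate 1. Other genes of the lists, among them G0s2 and Cyp4a32, had this order too. How often it occurs among all genes was not counted. Cyp4a10 shares 29.8% of its windows of 50 bases with other genes, most of them with Cyp4a32, and Cyp4a12a and Cyp4a12b share 48.9% and 49.5% of theirs with each other, so these counts are uncertain. Cyp4a31 and Cyp4a32 share 20.55% and 43.83% of theirs with other genes, so their counts are uncertain too. Cyp4a12b had a log2 fold change of -1.55 and Cyp4a12a of -1.19, and Cyp4a31 one of 0.98. Cyp4a12a was at -0.22 and Cyp4a31 at 0.11 with wild type replicate 1 left out. In this list 0 of 7 tested omega oxidation genes passed, 5 above and 2 below 0 on the log2 scale.

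**Figure D4:**
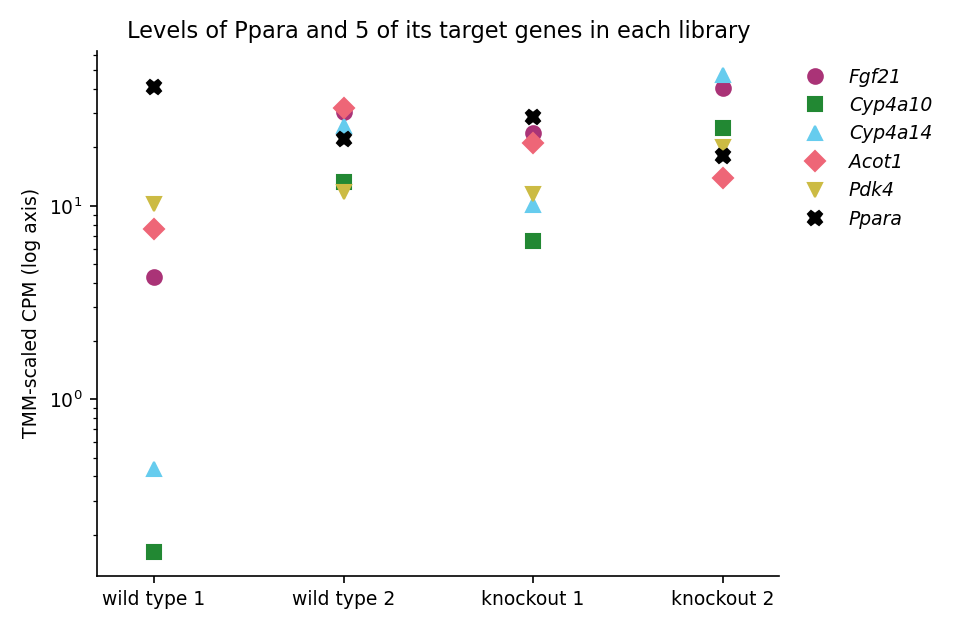
TMM-scaled CPM on a log axis of Ppara and of 5 of its target genes in each of the 4 libraries; each symbol is 1 gene. Fgf21, Cyp4a10, Cyp4a14 and Acot1 are lowest in wild type replicate 1, where Ppara is highest at 41.2 CPM.

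Over the 129 pathway genes, wild type replicate 1 was the lowest library for 42.6% and wild type replicate 2 the highest for 45.0%, against 22.4% and 31.4% of all tested genes. Hepatocyte markers had the same order at their ends, with 11 found of 12 and a summed level of 17505 and 53058 CPM in wild type and 41562 and 37094 CPM in knockout. None of the 11 was at 0. The part of hepatocyte content in the differences between libraries was not tested. With the geometric mean of these markers as the scale, the median log2 fold change of all tested genes moved to -0.32, and the log2 fold change was 1.02 for Ehhadh, 0.97 for Fgf21 and 0.38 for Cpt1a. On this scale Ppara was at -0.92, Cpt2 at -0.63, Acadm at -0.32, Acot1 at -0.21 and Acadl at -0.11.

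Markers of other cell types were summed in the same way. The 10 Kupffer and macrophage markers summed to 708 and 1097 CPM in wild type and to 397 and 267 CPM in knockout, and 10 of 10 had a negative log2 fold change. The 6 erythroid markers summed to 956 and 2172 CPM in wild type and 212 and 150 CPM in knockout, the 8 endothelial markers to 137 and 156 against 100.1 and 83.1 CPM, and the 8 stellate and fibroblast markers to 1460 and 1215 against 642 and 1156 CPM. The 8 T cell markers summed to 10.7 to 27.6 CPM, the 6 bile duct markers to 415 to 1127 CPM with wild type replicate 1 lowest, and the 8 immediate early genes to 388 to 919 CPM with knockout replicate 2 highest. Defining adipocyte markers were at or near 0, with Lep and Plin1 at 0 counts in all libraries and Adipoq at most 0.126 CPM, although the list of 6 summed to 68.8 to 147 CPM, and the 6 skeletal muscle markers summed to at most 6.43 CPM. The part of these cell types in the results above was not tested.

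Genes with the most similar pattern were found by the root mean square distance between mean-centred log2 CPM profiles over the 4 libraries, among 10712 named genes with at least 5 CPM. For Ppara the closest was Tfrc, at a distance of 0.0493, followed by Mycl at 0.0635, where the median distance was 0.547. For Cpt1a they were Xpo4 (0.00492) and Fuk (0.0217), and for Ehhadh Selenbp2 (0.0557) and Slc25a30 (0.0782). For Cpt2 they were Suclg1 and Mars, for Acadm Ebna1bp2 and Mphosph9, and for Acadl Sept6 and Aga. For Fgf21 they were Arl5b (0.0812) and Pdf (0.121), and for Acot1 Slc39a5 (0.0743) and Cav1 (0.102). None of these was a gene of the pathway lists. The closest of 10712 profiles over 4 libraries lay far below the median distance for every gene searched. For Cpt1a the closest was at 0.00492, against a median of 0.471. A small distance thus shows no link between genes, and a link of Ppara with Tfrc was not tested.

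**Figure D5:**
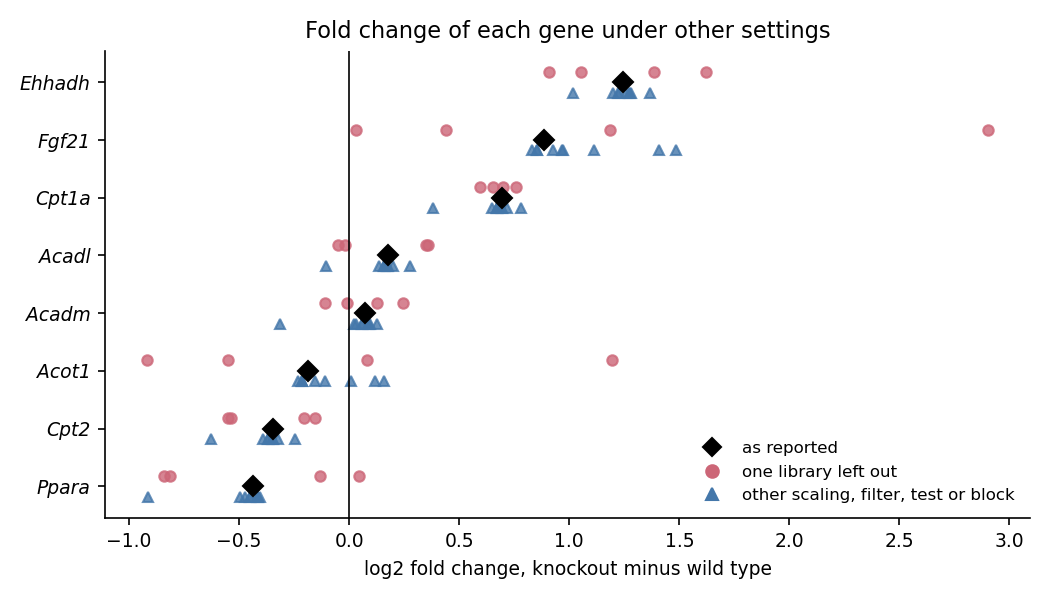
Log2 fold change, knockout minus wild type (horizontal axis), of the 8 genes as reported (black diamonds), with 1 library left out (red circles) and under another scaling, filter, test or replicate block (blue triangles). Ehhadh and Cpt1a stay right of 0 and Cpt2 left of 0 in every setting, while Fgf21 ranges from 0.033 to 2.90 and Acot1 from -0.92 to 1.19.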

How the data were processed

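Bulk mRNA-seq of liver tumours was analysed in 4 libraries, 2 per group, each from a separate mouse per the series' design text. The authors deposited raw counts per Ensembl gene and FPKM in 1 table. Per the submitters' processing notes, the tools were HISAT2, StringTie, edgeR and SAMtools 1.3.1 and the build mm10; which tool made which value is not stated. The deposited FPKM equalled counts scaled by library total and a fixed gene length within 1%, for 100% of 14371 genes with at least 10 counts in each library, and served only to set genes against each other. Of 55487 identifiers, 55141 matched a GENCODE M21 symbol.

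Genes were filtered with edgeR's filterByExpr (16310 left), TMM-scaled, and compared by the quasi-likelihood test of edgeR 4.0.16 in R 4.3.3. P-values were two-sided; Benjamini-Hochberg adjustment covered the 16310 genes, and 0.05 was the threshold. Log2 CPM used a prior count of 2. The test was checked on simulated data, where it missed most changes of about the size seen for Cpt1a and Ehhadh and also made some false calls, so a gene that did not pass is not shown to be the same in both groups. A floor of 3 counts was 0.163 to 0.195 CPM in a library, and this floor covers counting error only. The intervals of log2 fold changes come from edgeR's fit and include the spread between libraries.

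The 8 genes, 11 pathway lists (the 8 among them) and 10 marker lists were chosen with earlier results of these data known. Beyond the 8, up to 4 genes per list with the smallest p and the 2 with the highest FPKM were eligible to be named. Tfrc and genes found by motif, shared sequence, overlap or similar pattern were named for that reason. Other genes outside that rule are to be taken as chosen after their values were seen, whether or not this is said beside them. So are the genes and ratios compared with a member. Alternatives were DESeq2 size factors, library totals with or without mitochondrial genes, hepatocyte markers as scale, no filter, a filter at 5 CPM, DESeq2 1.42.0, limma-voom (limma 3.58.1), a replicate block, and leaving out each library, which takes the spread of a group left with 1 library from the other. Sequences are from RefSeq (GRCm38.p6) for promoters and GENCODE M21 for coding bases.

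Results of some genes of these lists are not reported here; the counts over lists include them.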

Additional observations from a re-analysis of the deposited data

How the results depend on the processing

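In each of the 13 alternatives run, 0 of the 8 genes passed the threshold. Over all tested genes, edgeR called 0 higher and 0 lower in knockout. DESeq2 called 63 higher and 85 lower, hepatocyte markers as the scale gave 11 and 37, and the replicate block gave 2 and 2. Library totals and limma-voom each gave 1 lower. Leaving out 1 library gave 0 to 209 higher and 0 to 200 lower, the most without wild type replicate 1. Replicate numbers are not known to pair the animals, and the deviations of same-numbered libraries correlated at 0.121 over genes. The sign of Ehhadh, Cpt1a, Cpt2 and Fgf21 was the same in all 13 alternatives. Of 104 fold changes under alternatives, 12 had the opposite sign, all of Ppara, Acadm, Acadl or Acot1. With hepatocyte markers as the scale, Acadm was at -0.32 and Acadl at -0.11. Acot1 was at 0.0063 with library totals without mitochondrial genes, 0.12 with the replicate block and 0.16 with limma-voom. Leaving out 1 library gave -0.84 to 0.044 for Ppara, -0.11 to 0.25 for Acadm, -0.051 to 0.36 for Acadl and -0.92 to 1.19 for Acot1. The cause was not tested. Without wild type replicate 1 or 2 in turn, the median of the 8 was 0.038 and 0.56.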
